A study of Mus musculus with 21 samples.

Results

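The 7 transcription factor genes Bhlhe41, Bhlhe40, Zbtb32, Arid3a, Nfatc1, Zbtb20 and Tbx21 were followed through sorted mouse B cells of the peritoneal cavity. They were taken by gene symbol from the 56953 genes of the count tables for their known roles in B-1 or other innate-like B cells, so that 7 of 56953 genes are described, and all 7 were found. The rule that chose them used no measured value, but they were chosen with earlier results of these data known. The study compared mice with a global loss of TET2, an enzyme that oxidizes methylated cytosines in DNA, with wild type (WT) mice, and RNA sequencing was done on both B-1 subsets (B-1a and B-1b) and on conventional B-2 cells. The B-1a subset had 4 libraries of each genotype, the B-1b subset 4 (WT) and 3 (TET2-KO), and the B-2 subset 2 (WT) and 4 (TET2-KO), which makes 21. The TET2-KO allele removes the exons of the catalytic region in every cell of the animal, so that effects of the loss within B cells and in other cells cannot be told apart. The labels name C57BL/6 as the strain and give neither the age nor the sex of the animals in each group. B-1a cells were gated as CD5+ and B-1b cells as CD5- within the cells that were low for IgD, CD23 and B220.

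B-1 cells are long-lived, self-renewing B cells of the body cavities that secrete natural IgM, and most B-1a cells arise from fetal and neonatal progenitors. Bhlhe41 and Bhlhe40 are closely related basic helix-loop-helix repressors that bind E-boxes, and Bhlhe41 is required to maintain B-1a cells. Zbtb32 and Zbtb20 are BTB zinc finger repressors, Arid3a is the DNA-binding protein through which Lin28b and let-7 set the fetal programme of B-1a development, Nfatc1 is a calcineurin-regulated factor needed for B-1a development, and Tbx21 encodes T-bet, which directs switching to IgG2 isotypes. In bulk RNA, fewer cells that express a gene and less RNA of it per cell cannot be told apart.

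All coordinates of genes are from the GRCm39 build. Bhlhe40 (ENSMUSG00000030103.12) lies on chromosome 6 from 108637590 to 108643886, plus strand, and Bhlhe41 (ENSMUSG00000030256.12) on the same chromosome from 145803969 to 145811284, minus strand. Zbtb32 (ENSMUSG00000006310.11) lies on chromosome 7 from 30289106 to 30298334, minus strand. Arid3a (ENSMUSG00000019564.13) lies on chromosome 10 from 79762877 to 79790852, plus strand, and Tbx21 (ENSMUSG00000001444.3) on chromosome 11 from 96988897 to 97006157, minus strand. Zbtb20 (ENSMUSG00000022708.17) spans chromosome 16 from 42696244 to 43462965, plus strand. Counts cover all exons of each gene together, so isoforms were not told apart.

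The promoters of Bhlhe41 and Zbtb32 are shown because these were the members with the largest differences between B-1 and B-2 cells. RefSeq promoter sequences (build GRCm38.p6, 250 bases before to 50 bases after the start) were matched by symbol for 4 of the 7 genes, namely Bhlhe41, Zbtb32, Zbtb20 and Tbx21. Both strands were searched for the E-box CACGTG, the sequence that Bhlhe40 and Bhlhe41 prefer, for the T-box sequence AGGTGTG of T-bet and for the NFAT core GGAAA. Capitals mark the matches, which did not overlap. The Bhlhe41 promoter is at chr6:145865371-145865670 and that of the upstream Zbtb32 start at chr7:30598860-30599159, both on the minus strand.
Bhlhe41: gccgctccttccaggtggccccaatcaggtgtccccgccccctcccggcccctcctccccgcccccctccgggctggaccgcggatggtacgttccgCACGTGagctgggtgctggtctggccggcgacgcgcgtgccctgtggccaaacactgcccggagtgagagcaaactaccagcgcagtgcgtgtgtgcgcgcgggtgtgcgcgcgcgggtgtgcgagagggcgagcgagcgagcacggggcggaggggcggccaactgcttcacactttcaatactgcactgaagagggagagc
Zbtb32: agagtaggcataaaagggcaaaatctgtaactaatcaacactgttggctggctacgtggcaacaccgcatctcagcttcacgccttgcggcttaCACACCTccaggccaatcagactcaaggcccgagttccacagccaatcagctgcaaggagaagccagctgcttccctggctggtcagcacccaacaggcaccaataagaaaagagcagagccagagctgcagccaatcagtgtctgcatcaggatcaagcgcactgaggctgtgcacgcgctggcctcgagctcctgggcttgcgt
The promoter of Bhlhe41 held a CACGTG that began at base 98 of the sequence, whereas that of the upstream Zbtb32 start held AGGTGTG on the opposite strand, from base 95. CACGTG was found in 7.15% and AGGTGTG in 5.84% of all 32851 promoters of this length. Neither was found in the windows of the other Zbtb32 start, Zbtb20 or Tbx21. GGAAA, which 61.3% of promoters held, had 1 match each in Zbtb20 and Tbx21 and none in the windows of Bhlhe41 and Zbtb32. A match of letters is a description of the window and not a bound site.

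Depth and sample identity were examined first. Total counts per library ranged from 9667187 to 24152518 (median 17425219), and counting error was therefore small for every member except Tbx21. Expression levels are given as CPM, which are counts scaled to the library total, after TMM normalization over all 21 libraries. The 6 B cell marker genes were present in all libraries, with summed levels of 12280 to 27971 CPM. Tet2 was counted at 12.8 to 33.4 CPM in TET2-KO and 8.48 to 27.0 CPM in WT libraries, and since the count includes the exons that were not deleted, it does not check the genotype. The 5 libraries labelled WT 1 or WT 2 stood apart and went against their subset labels in the genes of the sort markers. Fcer2a, which encodes CD23, ran from 533 to 846 CPM in the TET2-KO B-2 group and from 4.54 to 42.3 CPM in the TET2-KO B-1 groups. In the library labelled WT B-1a 1 it was at 817 CPM and in WT B-1b 2 at 597 CPM, whereas it was at 24.2 CPM in WT B-2 1. Cd5 was at 15.7 to 20.8 CPM in TET2-KO B-1a libraries, but at 1.63 CPM in WT B-1a 2 and at 17.9 CPM in WT B-1b 1. The same 5 libraries were the deepest (20142712 to 24152518 counts) and had counts on 18074 to 19255 genes, as against 25898 to 29339 genes in the 5 other WT libraries and 17816 to 35576 in the 11 TET2-KO libraries. The deposited labels were kept, and the main member values that rest on these 5 libraries are given with and without them.

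**Figure D1:**
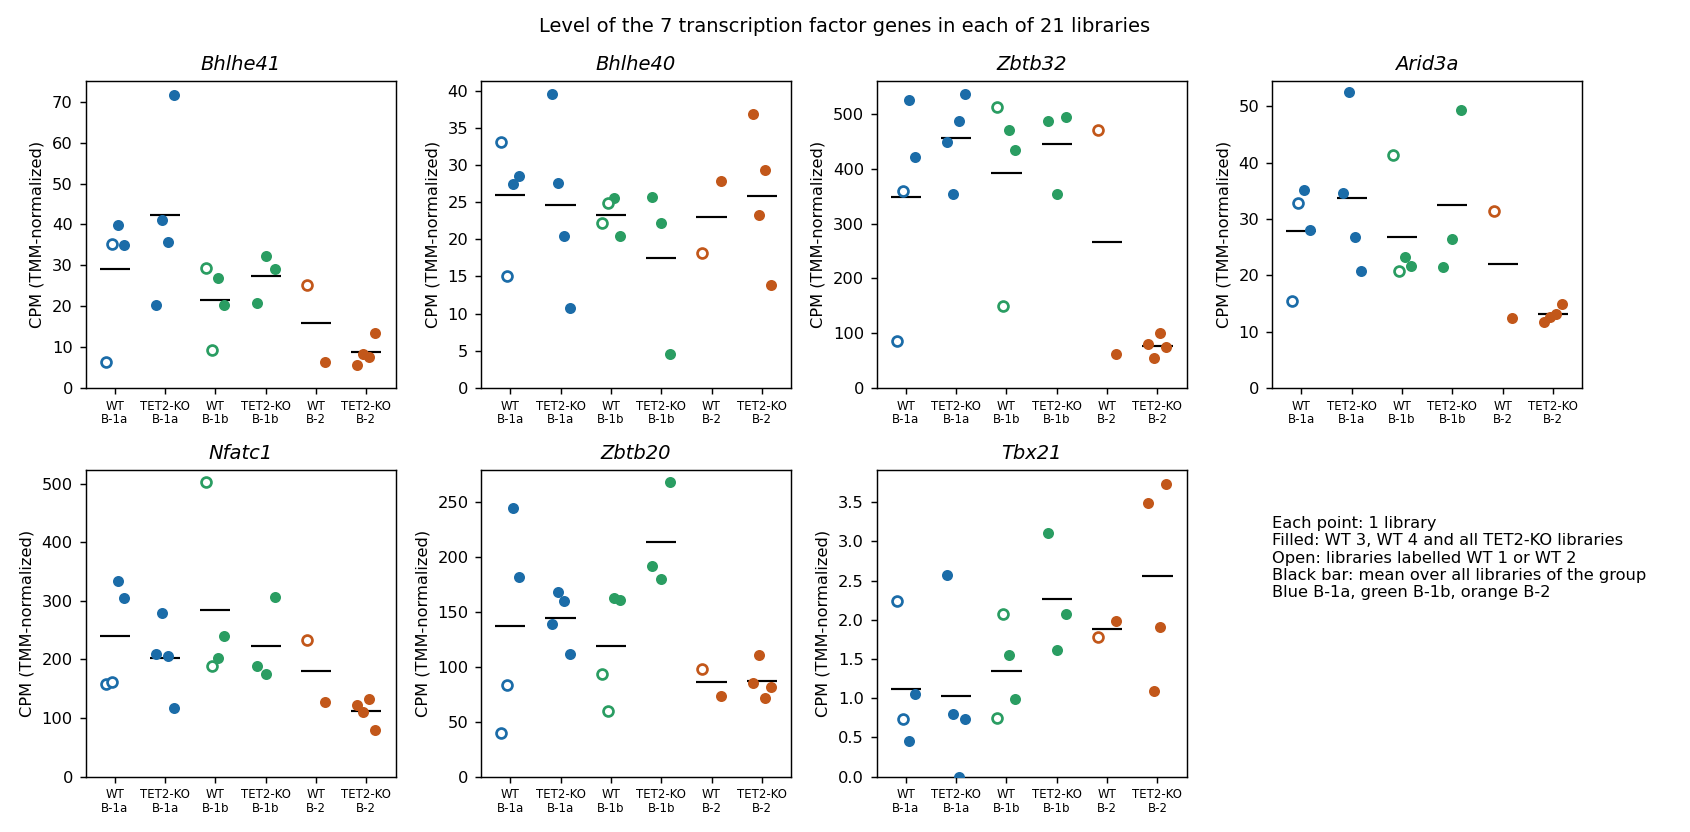
CPM of each of the 7 genes (vertical axis, linear from 0) in every library, by subset and genotype. Points are libraries, open points are those labelled WT 1 or WT 2 and bars are group means. TET2-KO B-2 libraries lie below every TET2-KO B-1 library for Bhlhe41, Zbtb32, Arid3a and Zbtb20, while the open WT points fall at both extremes. The share of all genes that separate in this way was not counted.

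The first question was whether the members differ between B-1 and B-2 cells, and this was tested among the 11 TET2-KO libraries by edgeR's quasi-likelihood method in one fit of the 3 subsets, with Benjamini-Hochberg adjustment over 18555 genes. Zbtb32, Bhlhe41, Arid3a and Zbtb20 were higher in B-1a than in B-2 cells, and the same 4 genes were higher in B-1b than in B-2 cells. Nfatc1, Bhlhe40 and Tbx21 did not pass an adjusted p of 0.05 in either comparison. No member was called lower. Across all genes tested, 5.82% were called in either direction and 3.26% were called higher in B-1a cells, and 2.15% and 1.52% in B-1b cells, against 4 of 7 members each time. These were 604 genes higher and 476 lower in B-1a cells and 282 higher and 117 lower in B-1b cells, a split that turned to 852 and 2626 and to 539 and 2333 with DESeq2, whose calls included the same 4 members in each comparison. A fit of all 21 libraries called 780 genes for B-1a over B-2 cells, Zbtb32, Bhlhe41 and Arid3a among them. For B-1b over B-2 cells it called 7 genes in all, with 0 members among them (adjusted p of the 7 members 0.0794 to 0.964, edgeR). Both comparisons share the B-2 libraries and are therefore not independent. Counts were found on 27669 to 35576 genes in TET2-KO B-2 libraries, as against 18941 to 28140 in B-1a and 17816 to 26360 in B-1b libraries. The part of this difference in the comparisons was not tested. With the replicate number as a block, since same-numbered B-1a and B-2 libraries deviated together, 1638 genes were called for B-1a over B-2 cells (1021 higher and 617 lower), and Nfatc1 was called besides the same 4 members.

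Zbtb32, a BTB zinc finger repressor that restrains B cell responses on recall, had the largest difference. It was at 450.0, 354, 487 and 537 CPM in the 4 TET2-KO B-1a libraries, at 487, 354 and 496 CPM in the 3 B-1b libraries, and at 79.8, 54.8, 101 and 73.9 CPM in the 4 B-2 libraries. Every B-1 library was above every B-2 library, with a wide gap between them. The share of all genes whose groups do not overlap was not counted, so overlap is only a description, here and for the other members. The difference from B-2 cells was 6.07-fold in B-1a cells (log2 fold change 2.60, SE 0.22, n = 4 and 4, adjusted p = 3.36e-06, edgeR) and 5.93-fold in B-1b cells (log2 fold change 2.57, SE 0.23, n = 3 and 4, adjusted p = 2.53e-05, edgeR). B-1a and B-1b cells did not differ in Zbtb32 beyond their spread, with a log2 fold change of 0.03 and a 95% interval from -0.45 to 0.51. Both differences from B-2 cells stayed past the threshold in each of the 11 fits that left out 1 library. Zbtb32 also had the highest level of the 7 genes per length, at 194 ± 32.8 CPM per kb of exon in B-1a and 32.8 ± 8.04 CPM per kb in B-2 cells (SD, n = 4 each).

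Bhlhe41, whose promoter carries the E-box shown above, was at 20.3, 41.1, 35.7 and 71.8 CPM in TET2-KO B-1a libraries. It was at 20.7, 32.3 and 29.1 CPM in B-1b libraries and at 5.70, 8.18, 7.47 and 13.3 CPM in B-2 libraries. B-2 libraries did not overlap with either B-1 subset, although B-1a library 4 stood above library 1 by more than the whole range of the B-1b group. The log2 fold change over B-2 cells was 2.33 in B-1a (5.04-fold, SE 0.35, adjusted p = 0.000619, edgeR) and 1.71 in B-1b cells (3.27-fold, SE 0.36, adjusted p = 0.0199, edgeR). In B-1a over B-1b cells it was 0.62 (95% interval -0.14 to 1.39, adjusted p = 0.858, edgeR), so an order between these subsets was not shown. The B-1a call held in all 11 fits that left out 1 library, and the B-1b call was lost in 5 of them, with adjusted p up to 0.121, when B-1b library 2 or 3 or B-2 library 1, 2 or 3 was left out.

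Its paralog Bhlhe40 did not follow this pattern. Bhlhe40 was at 39.5, 27.6, 20.4 and 10.8 CPM in TET2-KO B-1a libraries, at 25.7, 22.2 and 4.58 CPM in B-1b libraries, and at 36.9, 23.3, 29.3 and 13.9 CPM in B-2 libraries. The 3 subsets overlapped, and the spread within each was wider than the differences between them. The log2 fold change over B-2 cells was -0.04 in B-1a (95% interval -1.12 to 1.04) and -0.54 in B-1b cells (95% interval -1.72 to 0.65), with adjusted p of 0.972 and 0.62 from edgeR. Low Bhlhe40 coincided with low macrophage RNA and with other features of the same libraries. The 3 libraries with the lowest Bhlhe40 of all 21, TET2-KO B-1b 3, B-1a 4 and B-2 4, were also the 3 with the lowest summed level of the 10 macrophage markers, at 5625, 4254 and 4533 CPM. They were the 3 lowest in the summed B cell markers as well, at 14204, 13657 and 12280 CPM. Counts were found on 17816 genes in the first, the fewest of all libraries, on 18941 in the second and on 35576 in the last, the most of all, which also had the lowest total count. In the library with the highest Bhlhe40, TET2-KO B-1a 1, this sum was 23245 CPM, and the highest sum of all, 28533 CPM, was in WT B-1a 1 with 33.1 CPM of Bhlhe40. By group the sum ran from 4254 to 27309 CPM in TET2-KO B-1a, 5625 to 14378 in TET2-KO B-1b, 4533 to 19260 in TET2-KO B-2, 10670 to 28533 in WT B-1a, 11672 to 15965 in WT B-1b and 9060 to 23883 in WT B-2 libraries. Most of it came from Lyz2, the lysozyme gene of macrophages, while Adgre1 was at 44.9 to 392 CPM and Fcgr1 was at 0 in TET2-KO B-1a 4. Of the 10 markers, 0 passed the test in any TET2-KO subset comparison. The part of macrophage RNA, of total B cell marker level and of depth or number of genes counted in the Bhlhe40 values was not tested.

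**Figure D2:**
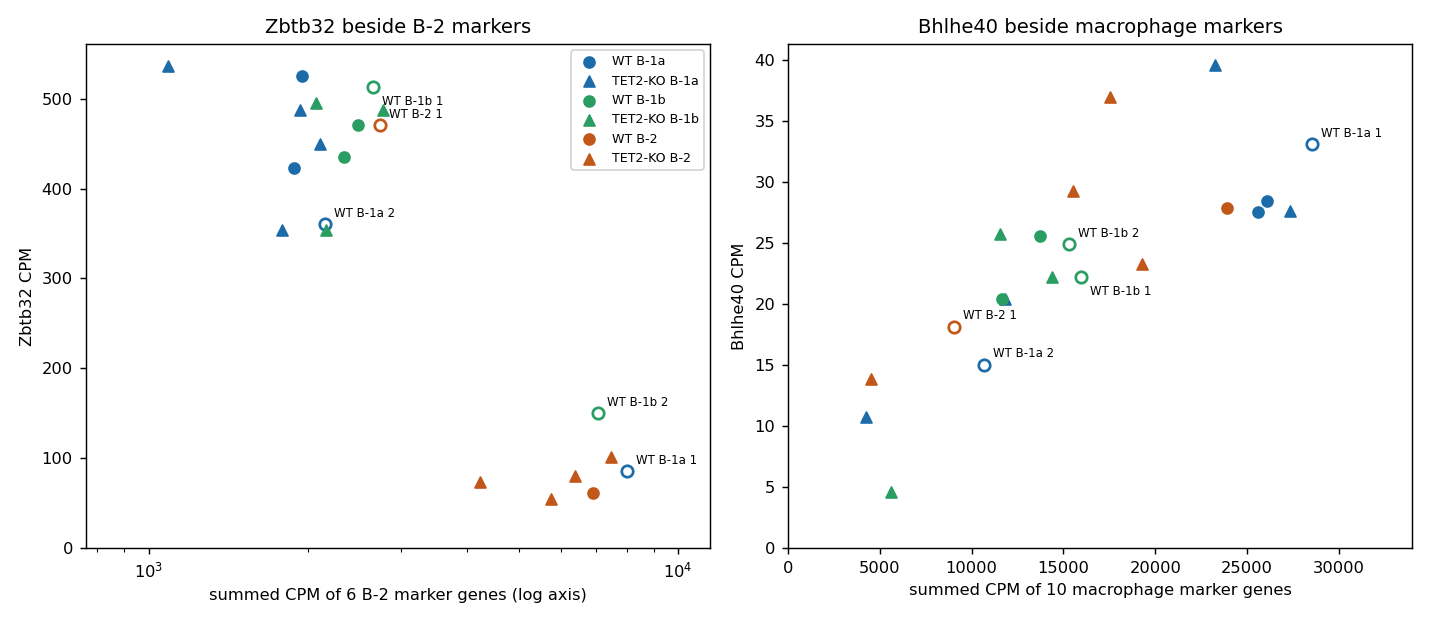
Left, Zbtb32 CPM against the summed CPM of 6 B-2 marker genes (log axis), and right, Bhlhe40 CPM against the summed CPM of 10 macrophage marker genes, with 1 point per library (circles WT, triangles TET2-KO, open circles WT 1 or WT 2). Zbtb32 lies at 354 CPM or above in every TET2-KO B-1 library and at 101 CPM or less in TET2-KO B-2 libraries, with WT B-1a 1, WT B-1b 2 and WT B-2 1 away from their labelled subset, and the lowest Bhlhe40 values lie at the lowest macrophage sums.

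Zbtb20, a BTB zinc finger factor that supports long-lived plasma cells, was at 139, 168, 160.0 and 112 CPM in TET2-KO B-1a libraries. It was at 192, 180.2 and 268 CPM in B-1b libraries and at 85.5, 110.4, 71.5 and 81.4 CPM in B-2 libraries. The 3 subsets did not overlap and B-1b was highest, but B-1a library 4 (112 CPM) and B-2 library 2 (110.4 CPM) were nearly level. The log2 fold change over B-2 cells was 1.33 in B-1b (SE 0.22, adjusted p = 0.00306, edgeR) and 0.77 in B-1a cells (SE 0.20, adjusted p = 0.0366, edgeR). The B-1b call held whichever library was left out, while the B-1a call was lost in 6 of 11 such fits (adjusted p up to 0.107), those without B-1a library 1, 2 or 3 or B-2 library 1, 3 or 4, and in the fits with RLE size factors (adjusted p = 0.0689, edgeR) or all 21 libraries (0.245). B-1a over B-1b cells gave a log2 fold change of -0.56 (95% interval -1.02 to -0.10), which did not pass adjustment (unadjusted p = 0.0198, adjusted p = 0.80, edgeR).

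Arid3a, the factor of the fetal programme, was at 34.5, 52.4, 26.8 and 20.8 CPM in TET2-KO B-1a libraries, at 21.4, 26.5 and 49.4 CPM in B-1b libraries, and at 11.8, 12.5, 13.1 and 14.8 CPM in B-2 libraries. The B-2 libraries were close to each other and below all B-1 libraries. The log2 fold change over B-2 cells was 1.40 in B-1a (SE 0.30, adjusted p = 0.0105, edgeR) and 1.36 in B-1b cells (SE 0.32, adjusted p = 0.0357, edgeR), and 0.04 between the B-1 subsets (95% interval -0.63 to 0.72). The call in B-1b cells rested on few libraries. Without B-1b library 3, where Arid3a was highest, the log2 fold change was 0.86, and the call was lost in 6 of 11 fits that left out 1 library (adjusted p up to 0.191), namely those without B-1b library 3, B-1a library 1 or any of the B-2 libraries. The B-1a call held in all 11 (adjusted p up to 0.0492). The B-1b call was also lost with RLE size factors (adjusted p = 0.06, edgeR).

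Nfatc1 (ENSMUSG00000033016.17, chromosome 18, 80649420 to 80756286, minus strand), the calcineurin-regulated factor, was at 209, 279.6, 206 and 118 CPM in TET2-KO B-1a libraries, at 188, 175 and 306 CPM in B-1b libraries and at 121, 111, 132 and 80.2 CPM in B-2 libraries. B-1b libraries were all above B-2 libraries, and B-1a library 4 fell among the B-2 libraries. The log2 fold change over B-2 cells was 0.91 in B-1a (SE 0.27, adjusted p = 0.059, edgeR) and 1.05 in B-1b cells (SE 0.28, adjusted p = 0.0714, edgeR). It passed in B-1a cells when B-1a library 4 or B-1b library 3 was left out, and in B-1b cells when B-1a library 4 was left out, with adjusted p down to 0.0136 and 0.0262. DESeq2 called it in both comparisons (adjusted p = 0.0328 and 0.02), as did edgeR without a filter on low counts (0.000836 and 0.000482). Without the filter more genes were called in all, 1699 and 870 as against 1080 and 399 in the main fit. With the replicate block, B-1a over B-2 cells gave a log2 fold change of 0.88 (SE 0.19, adjusted p = 0.0124, edgeR), past the threshold.

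Tbx21 was close to the limit of detection. Its raw count was 0 to 57 per library, and it was at 2.56, 0.798, 0 and 0.728 CPM in TET2-KO B-1a libraries, at 3.11, 1.61 and 2.07 CPM in B-1b libraries and at 3.49, 1.09, 1.91 and 3.73 CPM in B-2 libraries. The count of 0 in B-1a library 3 allows up to 0.170 CPM, taking 3 counts as the limit and counting error alone. The log2 fold change over B-2 cells was -1.27 in B-1a (95% interval -3.20 to 0.65) and -0.13 in B-1b cells (95% interval -2.16 to 1.91), and a difference was not detectable at this depth. The summed level of the 7 NK cell markers, another source of Tbx21, was 4.26 to 29.0 CPM in TET2-KO libraries. Its part in the Tbx21 values was not tested.

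**Figure D3:**
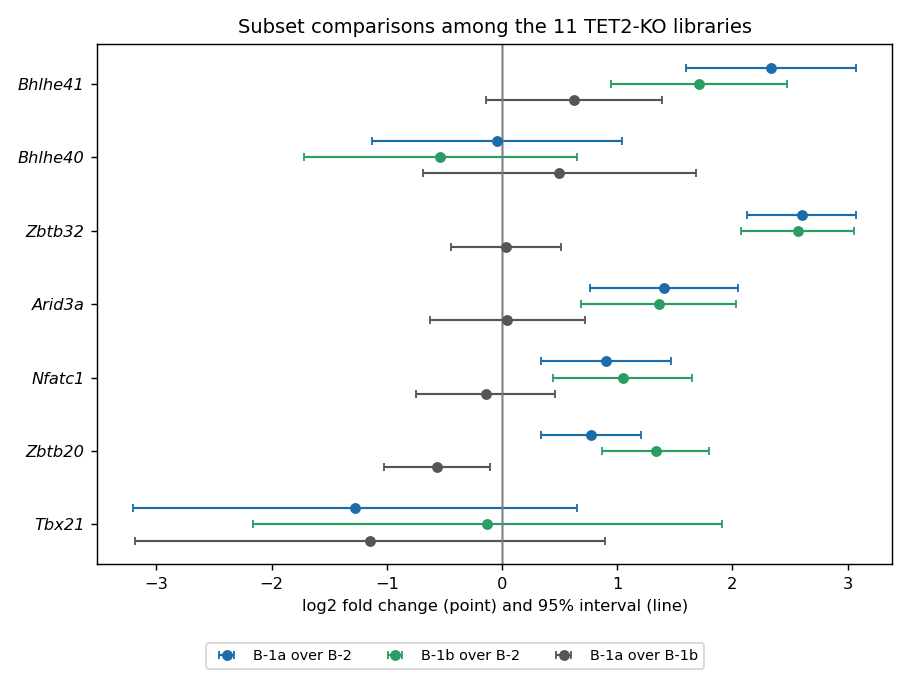
Log2 fold change (point) and 95% interval (line) of each gene between subsets of TET2-KO cells, from 4 libraries of B-1a, 3 of B-1b and 4 of B-2. The intervals of Bhlhe41, Zbtb32, Arid3a, Nfatc1 and Zbtb20 over B-2 cells lie above 0, of which those of Nfatc1 did not pass adjustment over all genes, and those of B-1a over B-1b cells include 0 except for Zbtb20.

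Between B-1a and B-1b cells of TET2-KO mice 0.205% of genes were called (38 of 18555), and 0 of the 7 members were among them. With the replicate block 103 genes were called, and again 0 members (adjusted p 0.637 to 0.992, edgeR). The smallest unadjusted p of a member was that of Zbtb20. Among the marker genes, Cd5 was called higher (log2 fold change 2.28, SE 0.33, adjusted p = 0.00834, edgeR) and Fcer2a lower (log2 fold change -1.83, SE 0.33, adjusted p = 0.0375, edgeR), both of which code for proteins of the sort.

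Genes linked to the members were examined as lists in the same fits. The IL-5 receptor genes Csf2rb (log2 fold change 2.05) and Il5ra (1.24) were higher in B-1a than in B-2 cells. The Csf2rb paralog Csf2rb2, listed with them, was higher as well (2.58). In B-1b cells 1 of these 3 genes was higher (Csf2rb, 1.75). Csf2rb and Csf2rb2 are closely similar paralogs, so the split of fragments between them is uncertain. Of 17 BTB zinc finger genes tested besides the members (18 listed), Zbtb38 was higher in B-1a (log2 fold change 1.25) and B-1b cells (0.93), and Bcl6, the repressor of germinal centre B cells, was lower (-1.94 and -1.58). The list's median log2 fold change was 0.02 in B-1a and 0.24 in B-1b cells, beside -0.05 and -0.10 over all genes. The 15 listed clock genes are those that Bhlhe40 and Bhlhe41 bind or whose products they oppose. Of the 13 tested, Bmal1 was lower in B-1a cells (log2 fold change -0.65, SE 0.18, adjusted p = 0.0449, edgeR). In B-1b cells 0 passed, and the medians were -0.29 and -0.43. Of 11 genes linked to T-bet that were tested (12 listed), 2 were higher and 2 lower in each B-1 subset. Fcrl5, an inhibitory receptor of innate-like B cells, rose by 2.52 in B-1a and 2.20 in B-1b cells on the log2 scale, Zeb2 by 1.47 and 1.13, and Stat4 fell by 1.79 and 1.31, while the list's medians were -0.48 and -0.66. Of 10 calcineurin and NFAT genes tested (12 listed), 0 passed in either comparison (medians 0.02 and 0.14). Of 5 genes of the Arid3 and fetal programme tested (8 listed), 0 passed as well (medians -2.29 and -2.73). Up to 5 of the 8 listed genes had a count of 0 in a TET2-KO library, so these medians rest on low counts. The list's summed level overlapped between TET2-KO subsets, at 36.6 to 56.0 CPM in B-1a, 41.4 to 72.7 in B-1b and 43.6 to 73.2 in B-2 libraries. In the comparison of B-1a with B-1b cells, 0 genes of these 6 lists passed.

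The marker lists moved as follows in the same TET2-KO comparisons. Of 6 B-1 markers, 4 were higher in B-1a than in B-2 cells, with the largest differences for Ctla4 (log2 fold change 3.48), Cd5 (2.94) and Spn (1.97), and 2 in B-1b cells, Ctla4 (2.54) and Spn (1.42). Of 6 B-2 markers, 5 were lower in B-1a cells, led by Fcer2a (-5.94), Cr2 (-4.12) and Ccr7 (-2.84), and 3 in B-1b cells, Fcer2a (-4.12), Cr2 (-2.86) and Ighd (-2.26). Cd5, Fcer2a and Ighd code for proteins of the sort gates, so the sort itself selected on them. Of 5 plasma cell markers tested (6 listed), Jchain (2.25) and Prdm1 (1.93) were higher in B-1a and Jchain (3.88) in B-1b cells. Of 8 T cell markers, Cd3g was higher in B-1a cells (1.89), and the summed T cell level was 17.4 to 74.8 CPM in TET2-KO libraries. Of the 6 B cell markers, 0 passed, as did 0 of 6 NK cell markers tested (7 listed).

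The same subset comparisons were then made in WT mice. With all 10 labelled WT libraries, 0% of 16769 genes were called in each of the 3 comparisons, and 165, 158 and 206 genes had an unadjusted p under 0.05 for B-1a over B-2, B-1b over B-2 and B-1a over B-1b. DESeq2 called 2, 1 and 0 genes. The log2 fold changes of Zbtb32 were 0.39 and 0.58 over B-2 cells in B-1a and B-1b cells, with 95% intervals from -1.49 to 2.26 and from -1.31 to 2.47. In the same order they were 0.87 and 0.45 for Bhlhe41, 0.65 and 0.47 for Zbtb20, 0.32 and 0.29 for Arid3a and 0.39 and 0.66 for Nfatc1. For B-1a over B-1b cells they were 0.42 for Bhlhe41, 0.19 for Zbtb20 and -0.27 for Nfatc1. Each of these intervals included 0. Zbtb32 was at 85.5, 361, 526 and 423 CPM in the libraries labelled WT B-1a 1 to 4, at 513, 149.8, 470.5 and 436 CPM in WT B-1b 1 to 4, and at 471 and 61.5 CPM in WT B-2 1 and 4. Thus 1 library of each labelled B-1 subset was closer to the TET2-KO B-2 than to the TET2-KO B-1 libraries, and 1 of 2 labelled B-2 libraries was at the level of B-1 cells. Bhlhe41 was placed alike, at 6.43, 35.2, 39.8 and 34.9 CPM in WT B-1a, 29.5, 9.16, 26.8 and 20.3 CPM in WT B-1b, and 25.1 and 6.45 CPM in WT B-2 libraries.

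When WT 1 and WT 2 were left out, so that there remained 2 B-1a, 2 B-1b and 1 B-2 library, the 5 members Zbtb32, Bhlhe41, Zbtb20, Arid3a and Nfatc1 were higher in both WT B-1 subsets than in the B-2 library. The spread of the lone B-2 library was assumed to equal that of the other groups. Of 18629 genes tested, 7.16% were called for B-1a over B-2 cells (4.2% higher), 5.53% for B-1b over B-2 cells (2.99% higher) and 3.22% for B-1a over B-1b cells (2.16% higher). For B-1a over B-2 cells the log2 fold changes were 2.97 for Zbtb32, 2.55 for Bhlhe41, 1.56 for Zbtb20, 1.36 for Arid3a and 1.35 for Nfatc1. For B-1b over B-2 cells they were 2.89, 1.88, 1.15, 0.86 and 0.81 in the same order, with adjusted p from 6.31e-10 to 0.022 from edgeR. Bhlhe40 and Tbx21 passed in neither. Between B-1a and B-1b cells, Bhlhe41 (log2 fold change 0.68, SE 0.17, adjusted p = 0.0262, edgeR) and Nfatc1 (0.54, SE 0.14, adjusted p = 0.0306, edgeR) were higher in WT B-1a cells, 2 of 7 members. Zbtb20 had a log2 fold change of 0.41 in WT (adjusted p = 0.149, edgeR), where it was at 245 and 181 CPM in WT B-1a and 163 and 161 CPM in WT B-1b libraries 3 and 4, the reverse of its order in TET2-KO cells. Arid3a was at 35.0 and 27.97 CPM in these WT B-1a libraries, at 23.1 and 21.7 CPM in WT B-1b and at 12.5 CPM in WT B-2 4.

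The lists were read in the same 5 WT libraries. Of the BTB zinc finger genes, Zbtb38 was again higher (log2 fold change 1.16 in B-1a and 1.07 in B-1b cells) and Bcl6 lower (-2.24 and -1.82) than in the B-2 library. Csf2rb was the IL-5 receptor gene called, at 2.00 and 1.62. Of the 12 genes linked to T-bet, 3 were higher and 3 lower in B-1a and 3 higher and 2 lower in B-1b cells, and Cxcr3, a chemokine receptor that T-bet induces, was higher in B-1b than in B-2 (2.21) and lower in B-1a than in B-1b cells (-2.52). Per1 (-1.27) of the clock genes and Nfat5 (-0.75) of the calcineurin and NFAT genes were lower in B-1b cells. Other cells moved with these subsets too. Of the 10 macrophage markers, 4 were higher in B-1a than in B-1b cells and 4 lower in B-1b than in B-2 cells, among them Lyz2 (1.07 and -0.92), and of 8 T cell markers 2 were higher in B-1a cells in each of its comparisons. Their part in the member values was not tested.

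**Figure D4:**
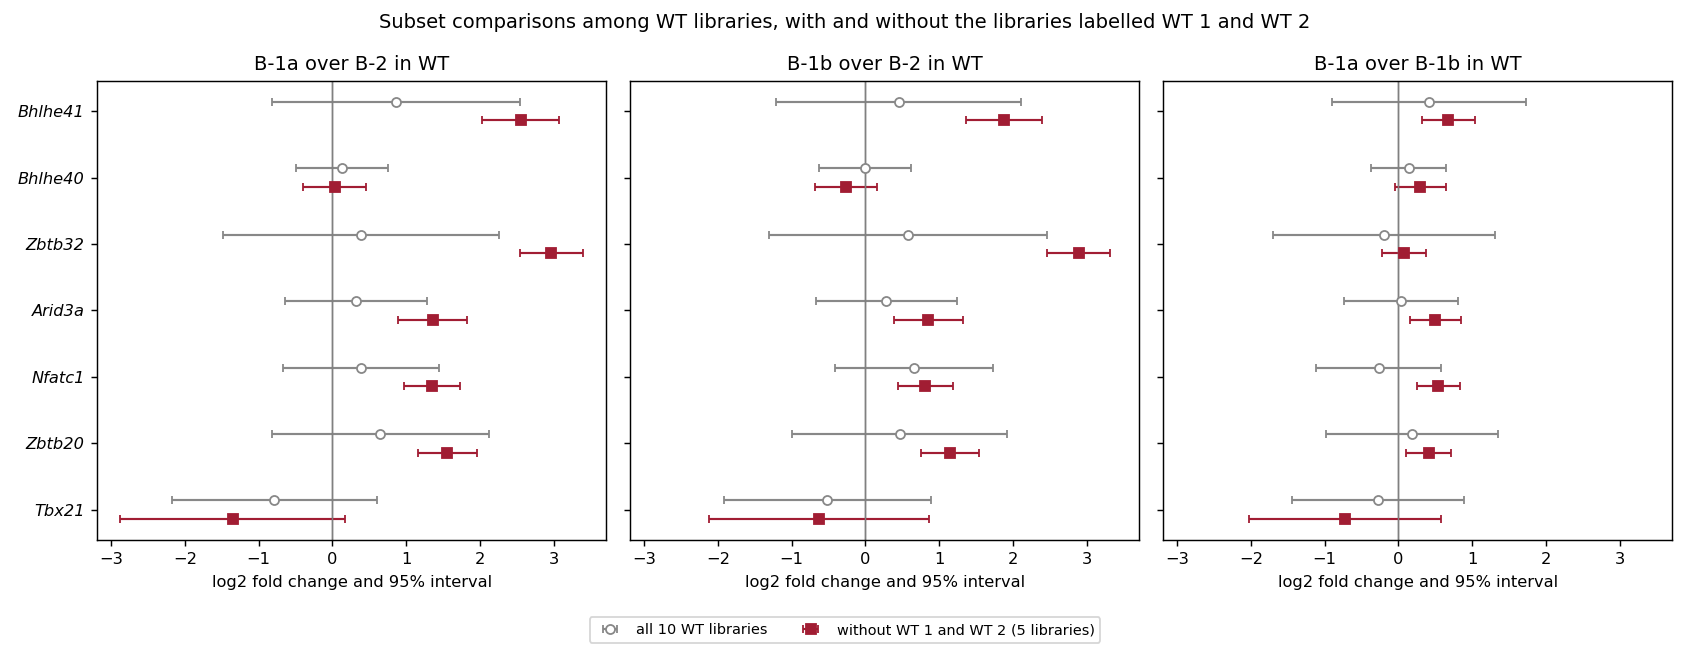
Log2 fold change and 95% interval between WT subsets for each gene, from all 10 labelled WT libraries (open circles) and from the 5 libraries without WT 1 and WT 2 (filled squares). Every interval from all 10 libraries includes 0, and without WT 1 and WT 2 those of Bhlhe41, Zbtb32, Arid3a, Nfatc1 and Zbtb20 over B-2 cells lie above 0.

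The second question was whether loss of TET2 altered the members within a subset. None of the 7 genes passed in any subset by edgeR. The percentage of all genes called was 0.0503% in B-1a (7 of 13923 genes), 0% in B-1b (0 of 14368, with 787 at an unadjusted p under 0.05) and 0% in B-2 cells (0 of 19786, with 1754). The difference between the B-1a and the B-1b effect was called for 0% of 15972 genes (250 at an unadjusted p under 0.05) and for 0 members, with adjusted p of 0.9999 for each. DESeq2 called 189, 60, 169 and 1 genes in these 4 comparisons and 0 members. In B-1a cells the log2 fold changes of TET2-KO over WT ran from -0.21 for Nfatc1 to 0.58 for Bhlhe41, with an interval for Zbtb32 (0.43) from -0.56 to 1.42. In B-1b cells they ran from -0.40 for Bhlhe40 to 0.88 for Zbtb20.

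Zbtb20 was the member with the smallest p in B-1b cells. It was at 192, 180.2 and 268 CPM in TET2-KO and at 93.3, 59.3, 163 and 161 CPM in WT B-1b libraries, so the groups did not overlap, but the difference did not pass adjustment (log2 fold change 0.88, SE 0.35, unadjusted p = 0.0339, adjusted p = 0.838, edgeR). Without a filter on low counts its adjusted p was 0.0267 (edgeR), in a fit that called 131 genes where the main fit called 0. Without WT 1 and WT 2 the log2 fold change was 0.43 (95% interval -0.14 to 0.99). In B-1a cells the same gene was at 139, 168, 160.0 and 112 CPM in TET2-KO and at 40.05, 83.7, 245 and 181 CPM in WT libraries, and its log2 fold change was 0.10 with all libraries and -0.55 without WT 1 and WT 2 (unadjusted p = 0.0314, adjusted p = 0.9997, edgeR). The difference of these effects between B-1a and B-1b cells was -0.78 with all libraries (95% interval -2.16 to 0.59) and -0.97 without WT 1 and WT 2 (unadjusted p = 0.0109, adjusted p = 0.9999, edgeR), and was not called.

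Nfatc1 in B-1a cells was at 209, 279.6, 206 and 118 CPM in TET2-KO and at 158, 161, 335 and 304 CPM in WT libraries. Its log2 fold change was -0.21 (95% interval -0.93 to 0.51), and -0.65 without WT 1 and WT 2 (95% interval -1.32 to 0.03). In B-1b cells it was at 188, 175 and 306 CPM in TET2-KO and at 503, 189, 203 and 240 CPM in WT libraries, with a log2 fold change of -0.31, and of 0.04 without WT 1 and WT 2.

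For the 6 other members, the genotype groups overlapped in each subset when all libraries were used. Bhlhe40 was at 33.1, 15.0, 27.5 and 28.4 CPM in WT B-1a, at 22.2, 24.9, 25.6 and 20.4 CPM in WT B-1b, and at 18.1 and 27.9 CPM in WT B-2 libraries, and its log2 fold change by genotype was -0.05, -0.40 and 0.14 in the 3 subsets. Its WT libraries lay within the range of the TET2-KO libraries. Arid3a was at 15.3, 32.8, 35.0 and 27.97 CPM in WT B-1a libraries and at 41.3, 20.7, 23.1 and 21.7 CPM in WT B-1b libraries, with log2 fold changes of 0.31 and 0.33. Without WT 1 and WT 2 they were 0.10 and 0.57 for Arid3a, and those of Bhlhe40 were -0.18, -0.40 and -0.12. Tbx21 was at 0.452 to 2.24 CPM in the 10 WT libraries, and its log2 fold changes of -0.10, 0.79 and 0.39 had intervals that all included 0, as did those of 0.43, 0.84 and 0.31 without WT 1 and WT 2. Zbtb32 and Bhlhe41, with the WT levels given above, had log2 fold changes of 0.43 and 0.58 in B-1a and of 0.21 and 0.38 in B-1b cells. Without WT 1 and WT 2 these became -0.04 and 0.20 in B-1a and -0.0040 and 0.24 in B-1b cells, with intervals for Zbtb32 from -0.54 to 0.46 and from -0.51 to 0.50.

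In B-2 cells the WT group consisted of the libraries WT 1 and WT 4, and the comparison rested on the former. Zbtb32 had a log2 fold change of -1.81 (SE 0.61, adjusted p = 0.531, edgeR), Arid3a of -0.78, Nfatc1 of -0.72 and Bhlhe41 of -0.91, while the median of all genes was 0.18. Without WT B-2 1, whose Zbtb32 level was 471 CPM, the values were 0.30 for Zbtb32, 0.02 for Arid3a, -0.22 for Nfatc1 and 0.37 for Bhlhe41, and that of Zbtb20 was 0.21 in place of -0.01, each with a 95% interval that included 0. Without a filter on low counts, the comparison with both WT libraries gave an adjusted p of 0.0453 (edgeR) for 1 member, Zbtb32. That fit called 167 genes where the main fit called 0.

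**Figure D5:**
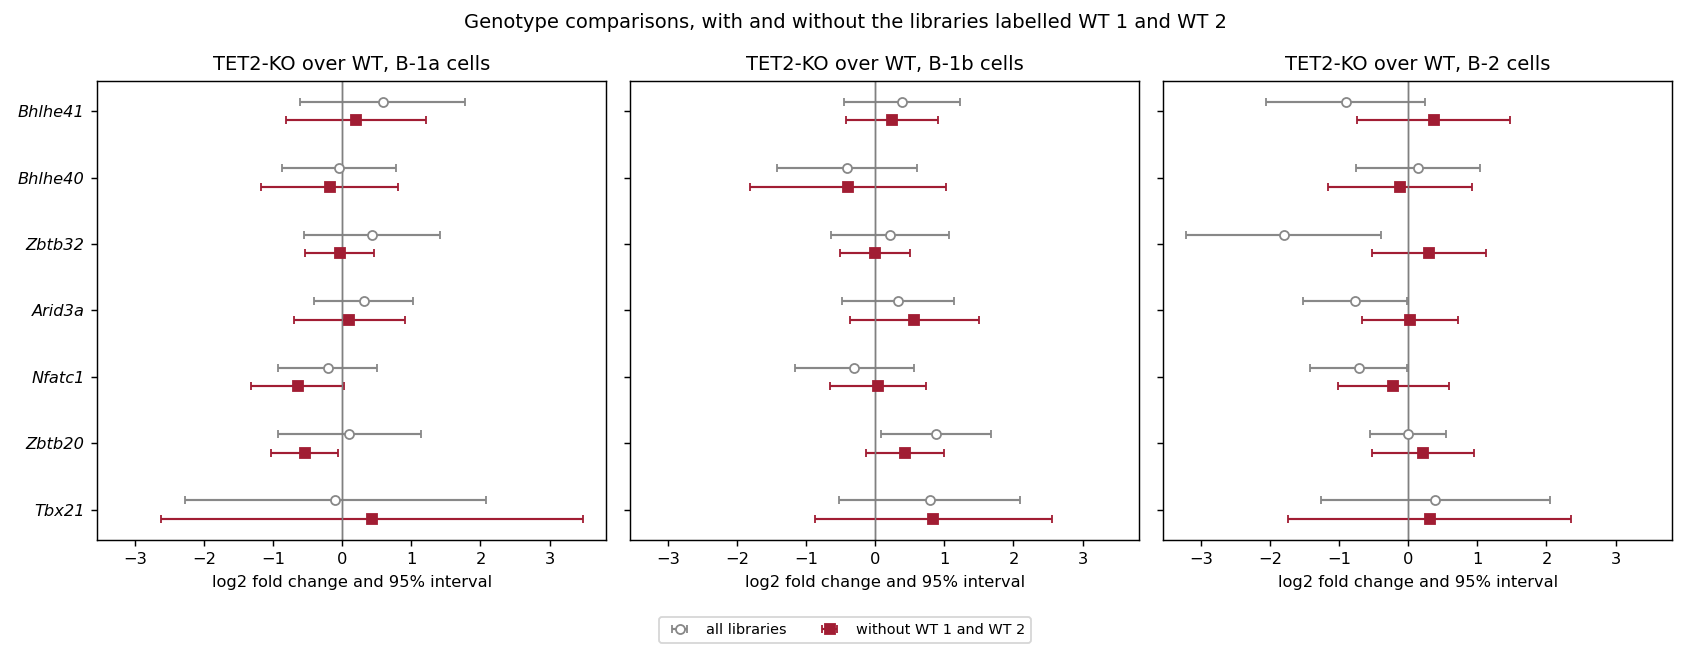
Log2 fold change and 95% interval of TET2-KO over WT for each gene in each of the 3 subsets, from all labelled libraries (open circles) and without WT 1 and WT 2 (filled squares). No gene passed adjustment in any subset, and in B-2 cells Zbtb32 moves from -1.81 to 0.30 when WT 1 is left out.

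Levels per length were compared between the members within TET2-KO subsets. In B-1a cells, in CPM per kb of exon, Zbtb32 was at 194 ± 32.8 and Nfatc1 at 27.2 ± 8.87 (SD, n = 4), followed by Bhlhe41 at 6.28 ± 3.21, Arid3a at 6.05 ± 2.47, Bhlhe40 at 5.22 ± 2.58 and Zbtb20 at 4.71 ± 0.82, which lay within each other's spread. Tbx21 was lowest, at 0.41 ± 0.44 CPM per kb. In B-2 cells Zbtb32 was again highest at 32.8 ± 8.04 and Nfatc1 second at 14.9 ± 2.99 CPM per kb, followed by Bhlhe40 (5.49 ± 2.07), whose libraries overlapped with those of Zbtb20 (2.84 ± 0.54), then Arid3a (2.35 ± 0.23), Bhlhe41 (1.29 ± 0.49) and Tbx21 (1.03 ± 0.51). The exon length of Zbtb20 in the annotation, 30730 bases over all isoforms, is far longer than that of Zbtb32, 2357 bases, and lowers its value on this scale.

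The genes whose levels followed each member most closely over the 21 libraries were taken by Pearson correlation of log2 CPM among 9982 genes with at least 5 CPM in at least 6 libraries. The libraries share subset, depth and other RNA, so these values are descriptions. Bhlhe41 was most like Spn (r = 0.96), which encodes CD43, a surface marker of B-1 cells, followed by Tbc1d9 (0.95) and Gnb3 (0.94). Zbtb32 was most like Gpr137b (0.97), Fah (0.96) and Csf2rb (0.96). Bhlhe40 was most like Hfe (0.97), Tifab (0.96) and Enpp4 (0.95). Arid3a was most like Hycc1 (0.91), Tent5c (0.90) and Atp2a3 (0.90), and Nfatc1 like Txndc11 (0.93), Anxa11 (0.93) and Fmo5 (0.91). The correlations were lower for Zbtb20, with Pou2f1 (0.88), Gm10552 (0.85) and Abhd14b (0.85), and for Tbx21, with AW554918 (0.79), Eogt (0.78) and Tmem17 (0.78). Over the 16 libraries without WT 1 and WT 2, the leading gene was again Spn, Gpr137b, Hfe, Hycc1 and AW554918 for Bhlhe41, Zbtb32, Bhlhe40, Arid3a and Tbx21, and it was Plekhm3 (0.91) for Zbtb20. No member was among the 3 genes closest to another member.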

How the data were processed

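RNA of 3 sorted peritoneal B cell subsets was sequenced in 21 libraries, and each library's group was taken from its label. The deposited values are raw fragment counts per gene. The authors trimmed reads with fastp, aligned them with STAR to GRCm39 and counted fragments with featureCounts 1.6.1 on GENCODE release 32, without strand and without multi-mapping or multiply assigned fragments. The versions of fastp and STAR are not given in the sources used here. The labels and the paper give different accounts of how libraries were made, so coverage bias along genes is not known. Symbols came from GENCODE release 39 and were found for 56310 of 56953 gene identifiers.

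Tests on the counts used edgeR 4.0.16 in R 4.3.3 with limma 3.58.1, TMM, filterByExpr and robust quasi-likelihood fits, with Benjamini-Hochberg adjustment over all genes tested and a threshold of 0.05. SE is the absolute log2 fold change divided by the square root of F, and intervals are 95%. All 7 members passed the filter in every comparison. TET2-KO was compared with WT in a fit per subset, and subsets were compared in one fit per genotype. DESeq2 1.42.0, RLE size factors, no filter, a fit without WT 1 and WT 2, a fit of all 21 libraries, fits that left out 1 library each and a block for the replicate number were alternatives. The method was tested on simulated counts. Figures were drawn with matplotlib 3.10.9. A legend of the study gives mouse numbers for the B-1 groups that equal the library numbers here. For B-2 groups the sources used here do not tie libraries to animals, so p-values measure the spread between these libraries. No source says what a replicate number shared between groups marks, so pairing was read from the data, as correlations of deviations from group means. These were above 0.1 in all 4 same-numbered pairs of TET2-KO B-1a and B-2 (0.268 to 0.612) and all 3 of B-1a and B-1b (0.234 to 0.429), which were taken as paired. They were not in all 3 pairs of B-1b and B-2 (0.011 to 0.431), and the WT and genotype comparisons had a pair below 0.1 or only 2 pairs. The members, lists, rules and alternatives were chosen with earlier results of these data known. Besides the members and Tet2, the text names at most 3 genes per list and comparison, those with the largest absolute log2 fold change past the threshold, the 3 genes most like each member, and markers used to check labels or other cell types. A gene of the likeness ranking and a surface marker of the sort are not reported here.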

Additional observations from a re-analysis of the deposited data

Results flagged for a closer look

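Of 28 sets of 4 libraries of a member and group, 3 held a library far from the other 3 by Dixon's test at the 95% level, where chance alone flags about 1 in 20 sets. Bhlhe41 in WT B-1a replicate 1 was at 6.43 CPM, below the 34.9 to 39.8 CPM of the other WT B-1a libraries. Arid3a in WT B-1b replicate 1 was at 41.3 CPM and Nfatc1 in the same library at 502.5 CPM, both above the other WT B-1b libraries, at 20.7 to 23.1 CPM and 189 to 240.0 CPM. The far libraries were all among those labelled WT 1. Fcer2a went against the label in WT B-1a 1 (817 CPM) and Cd5 in WT B-1b 1 (17.9 CPM). In WT B-1b 1 Fcer2a was low, at 16.6 CPM, as in the TET2-KO B-1 groups.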

How the results depend on the processing

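Values are log2 fold changes. Counts of genes called follow the order TET2-KO versus WT in B-1a, B-1b and B-2, the difference of the B-1a and B-1b effects, then B-1a versus B-2, B-1b versus B-2 and B-1a versus B-1b, first in TET2-KO and then in WT. The main fits called 7, 0, 0, 0, 1080, 399, 38, 0, 0 and 0 genes, DESeq2 189, 60, 169, 1, 3478, 2872, 141, 2, 1 and 0, and edgeR without a filter on low counts 318, 131, 167, 144, 1699, 870, 123, 107, 63 and 71. Without WT 1 and WT 2, 0 genes were called in B-1a cells and 1334, 1030 and 599 between WT subsets, and in one fit of all 21 libraries 80 for B-1a, 7 for TET2-KO B-1b versus B-2 and 6 for TET2-KO B-1a versus B-1b. RLE size factors kept every count within 1.5 times and shifted the median of all genes by -0.099 and -0.10 in both TET2-KO comparisons with B-2. Leaving out 1 library gave 0 to 6 genes in B-1a and 0 to 576 in B-2 cells by genotype, and 608 to 2015, 177 to 768 and 15 to 57 between TET2-KO subsets. The highest B-2 value came without WT B-2 4, where Zbtb32 (adjusted p = 0.0101, edgeR) and Arid3a (0.043) were called lower.

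Outside the paired TET2-KO comparisons, B-1a with B-2 and B-1a with B-1b, same-numbered libraries shared only a number (lowest correlation 0.011 for TET2-KO B-1b with B-2 and -0.340 in WT), and not every library correlated best with its own number. With the replicate number as a block, 48 genes were called in B-1a, 1 for the difference of effects, and 1638, 667 and 103 between TET2-KO subsets. Nfatc1 passed in TET2-KO B-1a versus B-2 (adjusted p = 0.0124, edgeR), Arid3a did not in B-1b versus B-2 (0.0756), no other member's call changed, and the sign turned for Bhlhe40 by genotype in B-2 (-0.038), Tbx21 in TET2-KO B-1b versus B-2 (0.089), Nfatc1 in TET2-KO B-1a versus B-1b (0.042) and Bhlhe40 in WT B-1b versus B-2 (0.11).

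No sign turned for a member past the threshold in the main fits. Among the others, Zbtb20 by genotype in B-2 was 0.021 with DESeq2 and 0.047 with RLE, and Bhlhe40 in WT B-1b versus B-2 was 0.010, 0.0081 and 0.045 with DESeq2, RLE and all 21 libraries. Without WT 1 and WT 2 the genotype values became -0.040 (Zbtb32), -0.55 (Zbtb20) and 0.43 (Tbx21) in B-1a, -0.0040 (Zbtb32) and 0.038 (Nfatc1) in B-1b, 0.37 (Bhlhe41), -0.12 (Bhlhe40), 0.30 (Zbtb32), 0.025 (Arid3a) and 0.21 (Zbtb20) in B-2, and WT B-1a versus B-1b became 0.080 (Zbtb32) and 0.54 (Nfatc1). The cause was not tested.

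Leaving out 1 library turned signs within these ranges. By genotype in B-1a they were -0.37 to 0.19 (Bhlhe40), -0.40 to 0.0051 (Nfatc1), -1.08 to 0.46 (Tbx21) and -0.21 to 0.55 (Zbtb20). In B-1b they were -0.15 to 0.62 (Arid3a), -0.77 to 0.046 (Bhlhe40), -0.64 to 0.13 (Nfatc1) and -0.064 to 0.37 (Zbtb32). In B-2 they were -1.28 to 0.025 (Arid3a), -0.12 to 0.52 (Bhlhe40), -1.57 to 0.37 (Bhlhe41), -0.18 to 0.21 (Zbtb20) and -2.61 to 0.30 (Zbtb32). In TET2-KO B-1a versus B-1b they were -0.26 to 0.50 (Arid3a), -0.34 to 0.17 (Nfatc1) and -0.10 to 0.14 (Zbtb32), for Bhlhe40 in B-1a versus B-2 -0.41 to 0.21, and for Tbx21 in B-1b versus B-2 -0.40 to 0.094. In WT B-1a versus B-2 they were -0.18 to 1.09 (Arid3a), -0.16 to 0.51 (Bhlhe40) and -0.43 to 2.44 (Zbtb32), and in WT B-1b versus B-2 -0.21 to 1.06 (Arid3a), -0.30 to 0.38 (Bhlhe40), -0.21 to 1.69 (Bhlhe41) and -0.24 to 2.64 (Zbtb32). In WT B-1a versus B-1b they were -0.099 to 0.35 (Arid3a), -0.48 to 0.19 (Nfatc1), -0.84 to 0.013 (Tbx21), -0.25 to 0.49 (Zbtb20) and -0.46 to 0.13 (Zbtb32).

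Depth limits Tbx21, with 0 to 57 counts per library. The WT B-2 group of 2 libraries, of which 1 went against its label, limits every value that uses it. All p-values describe these libraries only.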
